A study of Mus musculus with 30 samples.

Results

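Lin28a, Lin28b, Trim71, Igf2bp1, Igf2bp2, Igf2bp3, Hmga2, Myc and Mycn, 9 genes of the Lin28, let-7 and Myc circuit, were followed by symbol through mouse epiblast stem cells (EpiSCs) and the definitive endoderm (DE) made from them. All 9 were found among the 29555 genes of both deposited gene tables, and their peaks were 108 of the 158917 open chromatin regions in the table of EpiSCs and DE and 123 of the 181059 in the table of EpiSCs. EpiSCs are pluripotent cells of the post-implantation epiblast; here untreated cells at passage 5 to 10 were kept on feeder cells with Fgf2, ActivinA and the Wnt pathway inhibitor NVP-TNKS656, and were lifted with collagenase. DE, the germ layer that gives rise to gut, liver and pancreas, was made with CHIR99201 and ActivinA for 16 h and then ActivinA and LDN193189 for 24 h, with 46 h given for the whole course, and CXCR4+ cells were purified on magnetic beads. RNA libraries were 5 of C57BL/6 (B6) EpiSCs, 4 of B6 DE, 3 of PWK/PhJ (PWK) EpiSCs, 3 of B6.129 F1 EpiSCs and 1 of DBA/2J (DBA) EpiSCs; ATAC-seq libraries, which count fragments cut from open chromatin, were 4 of B6 EpiSCs, 4 of B6 DE, 2 of PWK EpiSCs and 1 of DBA EpiSCs. No genotype other than the strain was given for any group, and the labels do not say whether replicates were separate cultures, so p-values measure the spread between these libraries. The DBA RNA library carries the same replicate number (BioRep698) as a PWK library.

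Lin28a and Lin28b are RNA-binding proteins that block the maturation of the let-7 microRNAs, and let-7 in turn represses the messages of Lin28, Hmga2, Trim71, Igf2bp genes and Myc family genes, among others. High Lin28 with low mature let-7 is known from pluripotent cells and early embryos, and the balance shifts as cells differentiate. Myc and Mycn are transcription factors of growth and proliferation that bind E-box DNA with their partner Max and are also known as activators of Lin28b.

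The let-7 sequences are shown because they define the family whose processing Lin28 blocks and whose targets most of the 9 genes are; mature let-7 itself was not analysed here. In the RefSeq table of GRCm38.p6, 11 entries of 5p mature let-7 and miR-98 gave 9 distinct sequences with a single seed. The seed, bases 2 to 8, is in capitals.
let-7a-5p: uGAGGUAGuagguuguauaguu
let-7b-5p: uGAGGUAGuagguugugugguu
let-7d-5p: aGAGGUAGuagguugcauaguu
let-7g-5p: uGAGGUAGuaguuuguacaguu
miR-98-5p: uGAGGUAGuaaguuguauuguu
Lin28 is known to bind GGAG in the loop side of let-7 precursors. These 4 letters, in capitals here, lay after the 5p arm in 9 of 12 hairpins, as in Mirlet7g, and not in Mirlet7b, Mirlet7c-2 and Mir98.
Mirlet7g, chr9:106178840-106178927, plus strand: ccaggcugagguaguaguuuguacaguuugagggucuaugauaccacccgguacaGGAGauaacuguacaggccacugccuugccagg
Mirlet7b, chr15:85707319-85707403, plus strand: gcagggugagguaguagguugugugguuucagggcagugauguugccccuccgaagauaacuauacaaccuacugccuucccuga

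Promoter windows of 300 bases, 250 before and 50 after the RefSeq start, were matched for 7 of the 9 genes (not Igf2bp1 or Myc). The palindromic E-box CACGTG, which reads the same on both strands, was found in 2 of the 7, Lin28b and Igf2bp3, against 2349 of 32851 windows of the same length over all genes (7.15%). Neither of these 2 windows overlapped a peak in the table of EpiSCs and DE. The Lin28b window, chr10:45470152-45470451, lies inside the gene, which spans chr10:45376617-45486314. The matches are shown in capitals with 12 bases on each side, and they describe these windows only.
Lin28b, chr10:45470233-45470262, minus strand: aattgacagagtCACGTGtgctcaggggcc
Igf2bp3, chr6:49214960-49214989, minus strand: gctgggattcctCACGTGagacgttgattt
Igf2bp3, chr6:49214932-49214961, minus strand: ttgtagtttgaaCACGTGgctcattcaaaa
The Hmga2 window is shown because the peak over its start fell in DE, with the 75 bases inside that peak in capitals.
Hmga2, chr10:120476420-120476719, minus strand: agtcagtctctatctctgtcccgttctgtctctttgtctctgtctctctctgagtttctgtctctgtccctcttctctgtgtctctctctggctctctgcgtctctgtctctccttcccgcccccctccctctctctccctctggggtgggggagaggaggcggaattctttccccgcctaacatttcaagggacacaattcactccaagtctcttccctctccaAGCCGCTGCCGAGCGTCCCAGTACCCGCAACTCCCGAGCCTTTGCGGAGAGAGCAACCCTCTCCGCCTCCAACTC

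RNA depth was 22829536 to 66563933 counts per library in DE and 24529054 to 29947841 in EpiSCs of all strains, and ATAC depth was 3751526 to 9571127. Of 9 endoderm markers 9 were higher in DE, with Sox17, a transcription factor of endoderm, at 1128 to 1462 counts-per-million (CPM) against 0.628 to 9.52. Of 8 EpiSC markers 5 were lower, with Pou5f1, the pluripotency factor Oct4, at 2.46 to 37.8 against 981.8 to 1331 CPM, and 3 were higher (Fgf5, Otx2 and Nodal); the highest DE value of Pou5f1 was replicate 2. All 15 markers of feeder fibroblasts had counts in every group, and their summed level was 183.2 to 402.9 CPM in DE against 91.2 to 3428 CPM in B6 EpiSCs, where replicate 1 was lowest and replicate 51 highest. Thy1, a surface protein of fibroblasts, was at 0 to 0.153 CPM in DE.

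In DE, Lin28a, Lin28b, Trim71 and Hmga2 were 3.66-fold to 11.2-fold lower than in B6 EpiSCs, Igf2bp2 was 3.16-fold and Igf2bp3 1.31-fold higher, and Igf2bp1, Myc and Mycn had no call. All 9 genes passed the filter on low counts. The 2 genes higher and 4 lower stand beside 31.5% of the 14085 genes tested called higher and 30.6% called lower, so a call by itself was common in this comparison. For no comparison is the share of all genes or peaks given whose groups did not overlap, so a lack of overlap describes the named values only. Calls here are edgeR quasi-likelihood tests with Benjamini-Hochberg adjusted p under 0.05, and CPM are counts-per-million after scaling of library sizes. In these bulk samples, fewer cells of a type and less RNA per cell cannot be told apart.

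**Figure D1:**
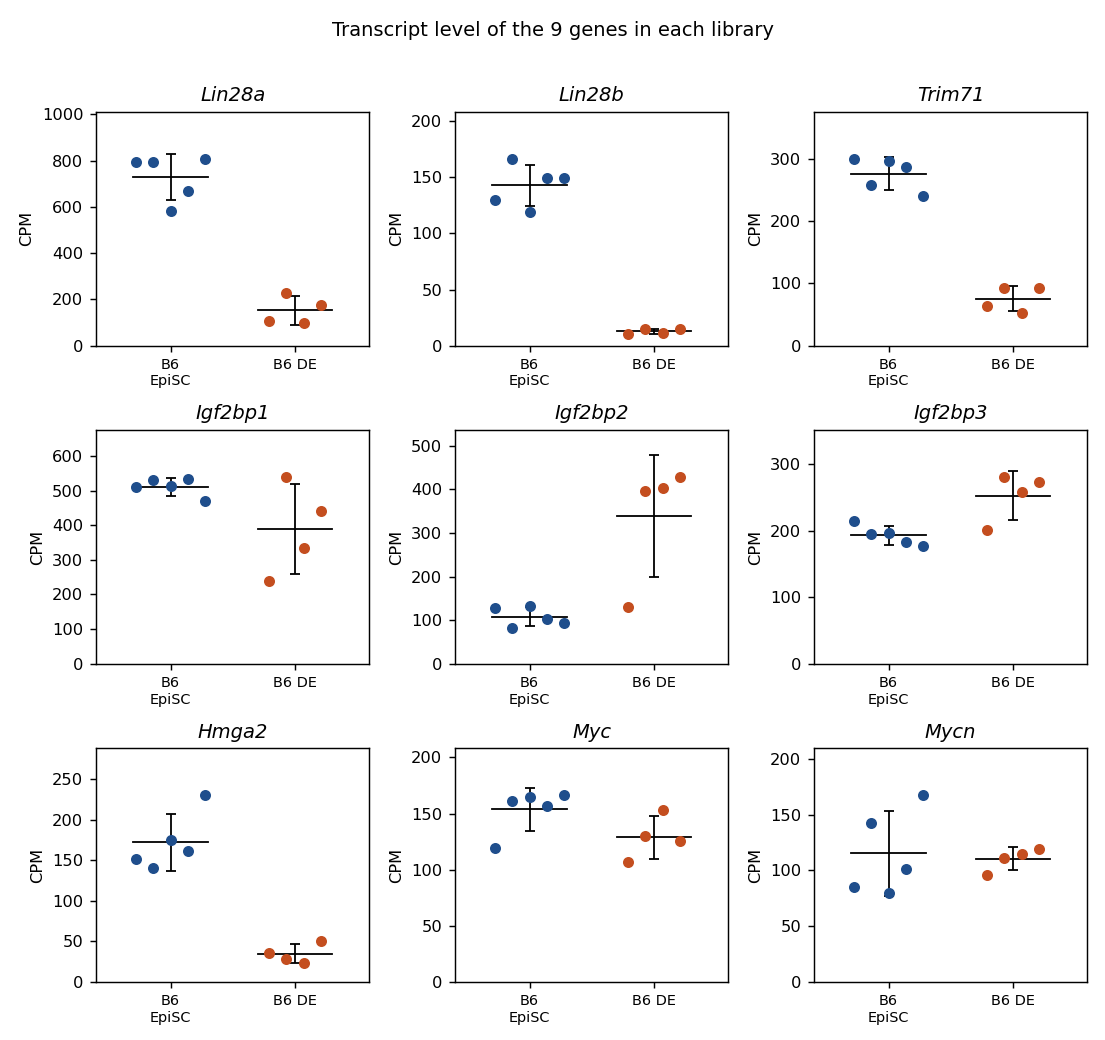
Transcript level in CPM (linear axis from 0) of each of the 9 genes in 5 B6 EpiSC and 4 B6 DE libraries; points are libraries, lines are means and bars are SD. Lin28a, Lin28b, Trim71 and Hmga2 are lower in all 4 DE libraries than in any EpiSC library, and Igf2bp2 has 1 DE library at 130.3 CPM, apart from the 3 others at 396.4 to 428.5 CPM.

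The let-7 blockers Lin28b and Lin28a both fell in DE. Lin28b, the paralog that acts largely in the nucleus, stood at 129.7, 166.4, 119.2, 149.3 and 149 CPM in EpiSC replicates 1, 2, 4, 44 and 51 and at 10.2, 14.5, 11.3 and 14.8 CPM in DE replicates 2, 4, 44 and 51. The groups did not overlap, and the DE mean was 11.2-fold lower (12.7 ± 2.28 against 142.7 ± 18.5 CPM, SD, n = 4 and 5; log2 change -3.49, SE 0.18, edgeR adjusted p = 4.40e-07). Lin28a, the paralog typical of pluripotent cells, stood at 795.5, 792.5, 580.4, 669 and 807.6 CPM in the same EpiSC libraries and at 105.8, 227.2, 99.2 and 175.3 CPM in DE. It was 4.80-fold lower (log2 change -2.26, SE 0.26, edgeR adjusted p = 4.41e-05), again with no overlap. DE replicates 4 and 51 have the most counts (59995667 and 66563933, against 22829536 and 25410448 in replicates 2 and 44). Both were higher than replicates 2 and 44 for Lin28a, Lin28b, Trim71, Igf2bp1 and Igf2bp3. With the 2 deeper DE libraries alone the log2 change of Lin28a was -1.86 and with the 2 shallower alone -2.87; both were called, and the part of depth in the spread was not tested.

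Among let-7 targets that act on RNA or chromatin, Trim71 and Hmga2 fell. Trim71, an E3 ligase and RNA-binding repressor of stem cells, was at 300.1, 257.6, 296.2, 287.8 and 239.8 CPM in EpiSCs and at 64.4, 92.3, 53 and 92.6 CPM in DE, 3.66-fold lower (log2 change -1.87, SE 0.19, edgeR adjusted p = 1.93e-05). Hmga2, an architectural chromatin protein of embryonic cells, was at 151.1, 140.9, 175.6, 162 and 230.7 CPM in EpiSCs and at 36, 28.7, 23.2 and 50.1 CPM in DE, 4.98-fold lower (log2 change -2.32, SE 0.25, edgeR adjusted p = 2.52e-05). Neither gene overlapped between the groups. Lin28a, Lin28b, Trim71 and Hmga2 remained called lower when only the EpiSC libraries with under 1000 CPM of feeder markers, replicates 1 and 4, were used (log2 changes -2.26, -3.37, -2.06 and -2.32).

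The Igf2bp genes, whose proteins bind and stabilise messages such as Igf2 and Myc, gave 1 large rise, 1 small rise and 1 gene without a call. Igf2bp2 was at 128.4, 81.5, 131.3, 103.4 and 93.5 CPM in EpiSCs and at 130.3, 396.4, 403.8 and 428.5 CPM in DE. DE replicate 2 lay within the EpiSC range and the 3 others far above it, so that the groups overlapped while the mean rose 3.16-fold (339.8 ± 140.3 against 107.6 ± 21.8 CPM; log2 change 1.66, SE 0.31, edgeR adjusted p = 0.000986). Against EpiSC replicates 1 and 4 alone the change was 1.32 with edgeR adjusted p = 0.0579. Replicate 2 was also the DE library with the most Pou5f1 and the highest feeder marker sum (402.9 CPM against 183.2 to 201.5 CPM in the 3 others); the part of either in its Igf2bp2 level was not tested.

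Igf2bp3 rose less, from 213.9, 194.4, 196.5, 182.5 and 177.4 CPM to 200.5, 280.8, 257.5 and 272.8 CPM, with DE replicate 2 again inside the EpiSC range (log2 change 0.39, SE 0.13, edgeR adjusted p = 0.0245). That call was lost without any one of DE replicates 4, 44 and 51 or EpiSC replicates 2, 44 and 51 (highest adjusted p 0.0684), with scaling by total counts (0.116) and without the filter on low counts (0.0588). Against EpiSC replicates 1 and 4 alone, the libraries low in feeder markers, the change was 0.23 with edgeR adjusted p = 0.443. With the 2 shallower DE libraries alone the Igf2bp3 change was 0.21 (edgeR adjusted p = 0.296), and with the 2 deeper alone 0.52 (0.0034). Igf2bp1 was at 511.4, 531.3, 514.6, 534.1 and 469 CPM in EpiSCs and at 240, 539.8, 333.8 and 442.6 CPM in DE. Its 4 DE values spanned from far below the EpiSC range to just above it, and the log2 change of -0.40 (95% confidence interval -0.86 to 0.07, edgeR adjusted p = 0.122) was not called; without DE replicate 4 it was -0.59 with adjusted p = 0.0250, and with the 2 shallower DE libraries alone -0.87 with adjusted p = 0.00384.

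The growth regulators Myc and Mycn showed no called change. Myc was at 119.5, 161.5, 164.6, 156.3 and 166.5 CPM in EpiSCs and at 107.1, 129.7, 153.3 and 125.2 CPM in DE, a log2 change of -0.25 (interval -0.58 to 0.07, edgeR adjusted p = 0.158). Mycn was at 84.9, 142.1, 80.1, 101.6 and 167.6 CPM in EpiSCs and at 96.1, 111.5, 114.9 and 119.3 CPM in DE, a change of -0.06 (interval -0.56 to 0.44, edgeR adjusted p = 0.826). Mycn varied more among EpiSC libraries (SD 38.1) than among DE libraries (SD 10.1). These intervals leave room for a fall of Myc of 0.58 and a move of Mycn of 0.56 on the log2 scale.

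**Figure D2:**
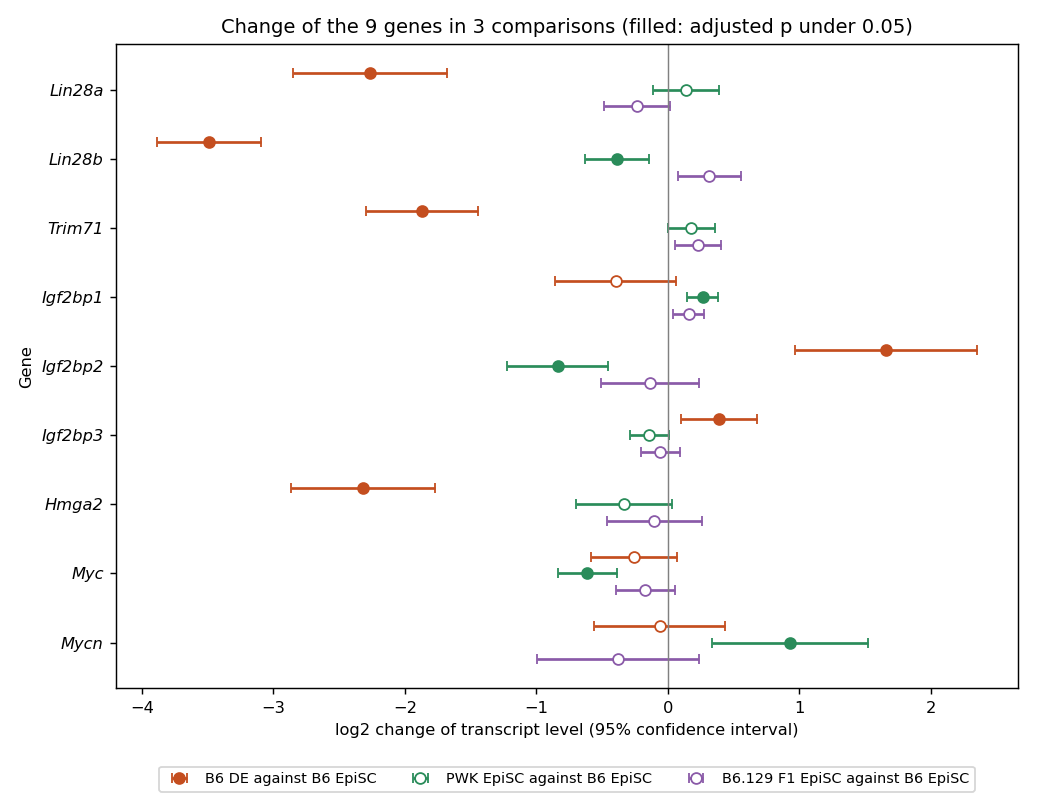
Log2 change of transcript level (points) with its 95% confidence interval (bars) for each of the 9 genes in B6 DE, PWK EpiSCs and B6.129 F1 EpiSCs, each against B6 EpiSCs; filled points passed adjusted p under 0.05. The 4 largest falls, Lin28b at -3.49, Hmga2 at -2.32, Lin28a at -2.26 and Trim71 at -1.87, are in DE, and the PWK calls lie between -0.84 and 0.93.

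The genes that make, use and degrade let-7 fell in DE more often than they rose: of 18 tested, 2 were higher and 12 lower (median log2 change -1.28 against -0.01 over all genes). Over all genes 31.5% were called higher and 30.6% lower. Tarbp2 and Prkra, double-stranded RNA-binding partners of Dicer, rose 2.05-fold and 1.90-fold. Tnrc6a and Tnrc6b, GW182 scaffolds of the silencing complex, fell 5.49-fold (24.2 ± 5.0 against 132.8 ± 13.9 CPM) and 4.98-fold (21.1 ± 2.37 against 105.1 ± 12.9 CPM). Looked at after their values were seen, Tut4, which tails Lin28-bound let-7 precursors, was at 25.3 ± 2.69 against 109.1 ± 19.5 CPM (log2 change -2.11, edgeR adjusted p = 3.67e-06), and Dicer1 fell by 1.41 on the log2 scale (adjusted p = 3.13e-05). Dis3l2, the nuclease that degrades those tailed precursors, was at 40.2 ± 5.78 against 30.3 ± 6.34 CPM and was not called (edgeR adjusted p = 0.0762).

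Of 20 other let-7 targets, 19 passed the filter, with 4 higher and 12 lower (median -0.71), beside 31.5% and 30.6% of all genes. Cdk6, a kinase of the G1 phase, fell 56.8-fold, from 159.1 ± 48.7 to 2.83 ± 1.91 CPM (log2 change -5.83, SE 0.55, edgeR adjusted p = 1.17e-05). Ccnd1, its cyclin partner, fell 6.59-fold. Prdm1, a transcription factor also known from endoderm, rose 17.3-fold, from 6.11 ± 3.95 to 106 ± 28.6 CPM, and E2f5, a cell cycle repressor, rose 2.95-fold.

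Around Myc, 4 of 13 partners and antagonists were higher and 3 lower (median 0.10). Over all genes tested 31.5% were called higher and 30.6% lower. Mycl, the third Myc family gene, rose 5.88-fold, from 58 ± 8.17 to 341.5 ± 57.9 CPM (log2 change 2.56, SE 0.16, edgeR adjusted p = 1.12e-06), while Myc and Mycn were not called. Mxd1, which competes with Myc for Max, rose 4.03-fold, whereas Mnt and Mga, repressors that also bind Max, fell 4.37-fold and 3.22-fold. Of 20 Myc targets of growth, 5 were higher and 10 lower (median -0.41): Ldha, the lactate dehydrogenase of glycolysis, rose 3.52-fold and Srm, spermidine synthase, 1.99-fold, while Tert, the telomerase enzyme, fell 3.26-fold and Ncl, nucleolin, 2.26-fold. Over the feeder markers 12 of 15 were lower and none higher in DE, led by Thy1 and Col6a3.

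Gene span, from RefSeq start to end, moved with the DE change over all genes, a relation looked at after the data were seen. With the 97.1% of tested genes that had a span cut by span into 5 classes of equal number, the median log2 change went from 0.50 in the shortest class through 0.34, 0.05 and -0.29 to -0.78 in the longest, where 47.7% of genes were called lower. In PWK EpiSCs the 5 medians lay between -0.04 and 0.06. Lin28b (110 kb) and Hmga2 (115 kb) are in the longest class, and 9.03% and 19.6% of that class changed further down than they did. Lin28a (15.9 kb) is in the class next to the shortest, where 8.08% changed further down, and Trim71 (53.1 kb) in the class next to the longest, where 15.6% did. Igf2bp2 (104 kb) and Igf2bp3 (130 kb) rose in the longest class, above 91.7% and 76.6% of it. Myc (5.02 kb) and Mycn (5.74 kb) lay below the median of the shortest class. Of the 18 let-7 processing genes, 15 are in the 2 longest classes, and 15 lay below the median of their own class. What links span and change was not tested.

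**Figure D3:**
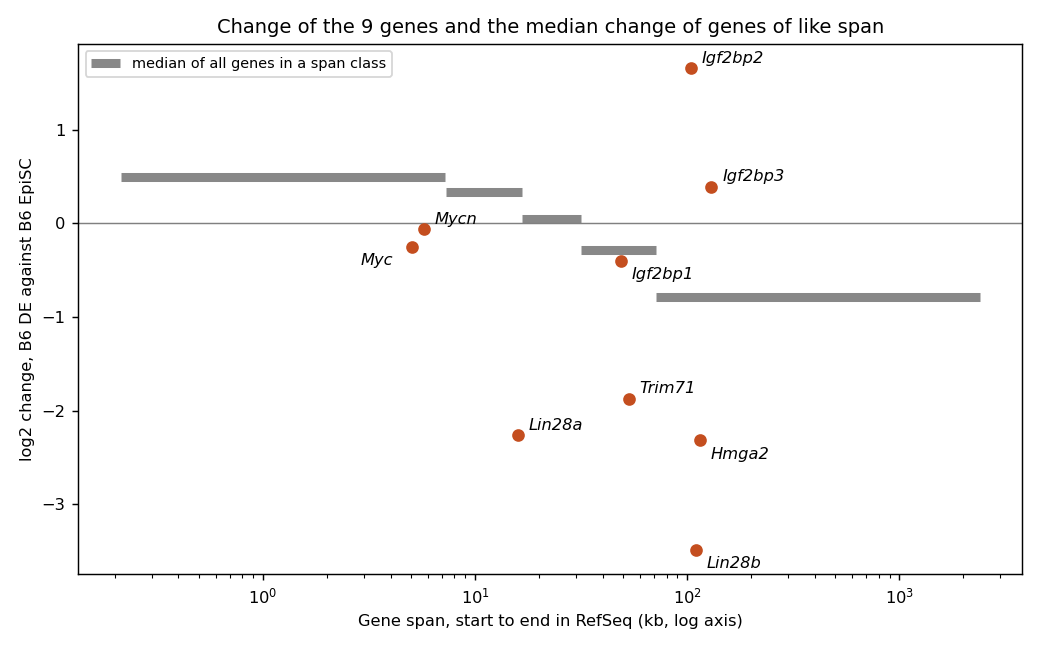
Log2 change in DE against gene span in kb (log axis) for the 9 genes (points), with the median change of all genes in each of 5 span classes (grey lines). The medians step down from 0.50 to -0.78; Lin28a, Lin28b, Trim71 and Hmga2 lie below the line of their class, Igf2bp2 and Igf2bp3 above it.

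Open chromatin at the 9 genes changed in both directions in DE, and not always with the transcript. Peaks overlapping a gene or within 10 kb of either end numbered 108, of which 81 lay in the gene; 88 passed the filter on low counts, 22 of them higher and 26 lower. Over all 113870 peaks tested, 32.6% were called higher and 25% lower, so calls in both directions were common in this comparison. Scaling by total counts shifted the median of all peaks by -0.22 (from -0.01) and gave 19 higher and 31 lower among these 88. Coordinates are mm10 as in the files, whose sources here do not say whether starts count from 0 or 1, and the RefSeq table gives no exons.

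**Figure D4:**
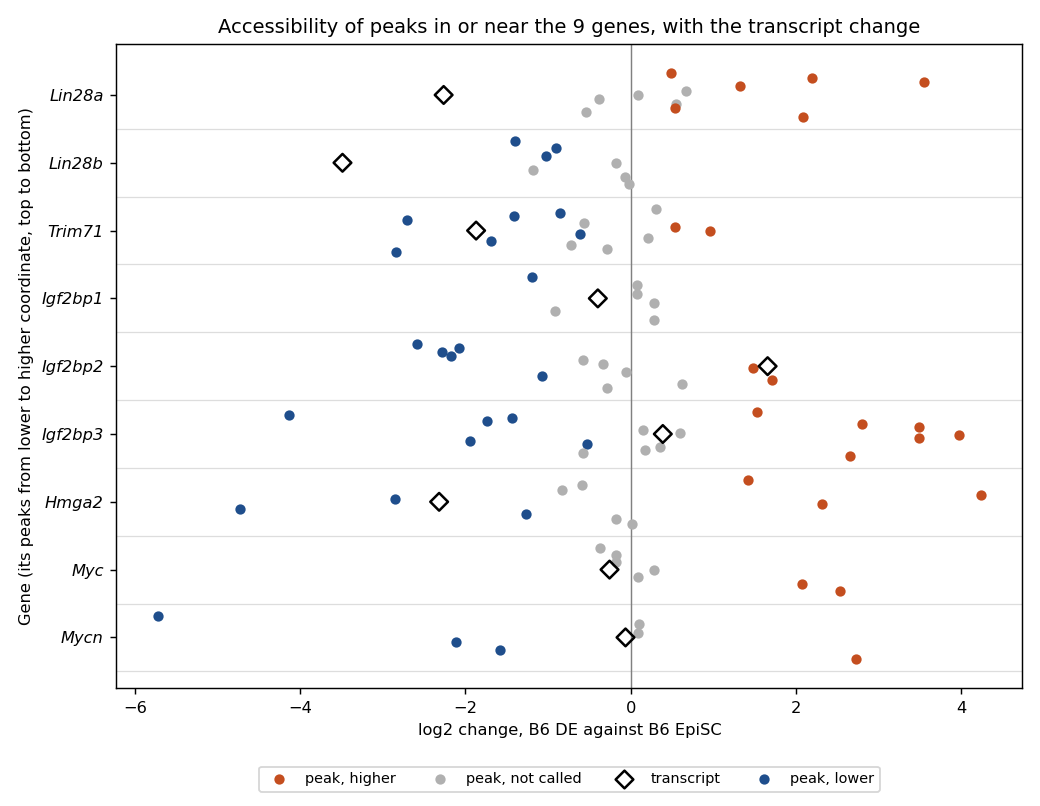
Log2 change of accessibility in DE against EpiSCs for each tested peak of the 9 genes (points, coloured by call), drawn in coordinate order within each gene, with the transcript's change as a diamond. At Lin28a 6 of 11 tested peaks are higher while the transcript is 2.26 lower; at Lin28b and Trim71 the called peaks are mostly or wholly lower.

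Lin28a (ENSMUSG00000050966, chr4:134003330-134019196) gained accessibility while its transcript fell: 6 of 11 peaks were higher and none lower. The peak at chr4:134006929-134007166, inside the gene, was at 0.96, 1.90, 1.53 and 0.93 CPM in EpiSC replicates 1, 4, 44 and 51 and at 10.3, 17.9, 14.7 and 22.2 CPM in DE replicates 2, 4, 44 and 51. Every DE library was above every EpiSC library (log2 change 3.55, SE 0.34, edgeR adjusted p = 3.46e-08). The promoter peak, chr4:134018792-134019073, was at 10.1, 10, 9.44 and 11.8 CPM in EpiSCs and 18.1, 13.2, 11.9 and 17.3 CPM in DE (log2 change 0.53, edgeR adjusted p = 0.0463). That call was kept in only 2 of 15 alternatives. It was lost in 7 of 8 fits without 1 library (all but DE replicate 44) and with scaling by total counts (0.32, adjusted p = 0.224). Relative log expression scaling (adjusted p = 0.0645), DESeq2 (0.0635) and no filter on low counts (0.0560) also lost it.

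Lin28b (ENSMUSG00000063804, chr10:45376617-45486314) had 3 lower and no higher among 7 tested peaks of 9. Its peak at chr10:45473246-45473404 lay in the gene, 3124 bases before the RefSeq start of the promoter window, a start that is itself inside the gene. That peak went from 13.3, 12, 13.8 and 15.8 to 4.32, 10.4, 6.58 and 5.19 CPM (log2 change -1.02, SE 0.27, edgeR adjusted p = 0.00281). No library overlapped, and DE replicate 4 was nearest to the EpiSCs. The peak nearest to a gene end, chr10:45486298-45486524, lay over the higher-coordinate end, the upstream end of this minus-strand gene. It was not called, at a mean of 10.8 CPM in DE and 10.9 in EpiSCs (log2 change -0.02, 95% confidence interval -0.52 to 0.47, edgeR adjusted p = 0.947). Trim71 (ENSMUSG00000079259, chr9:114511268-114564369) had 6 lower and 2 higher of 13. The peak with the lowest p, chr9:114556353-114556756 in the gene, fell from 14.9, 23.8, 19.6 and 21.1 to 4.94, 6.25, 6.58 and 6.92 CPM (log2 change -1.69, SE 0.23, edgeR adjusted p = 3.42e-06), while the promoter peak, chr9:114564126-114564533, changed by -0.28 and was not called (adjusted p = 0.315).

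Hmga2 (ENSMUSG00000056758, chr10:120361268-120476469) lost accessibility over its start and changed in both directions inside the gene. The promoter peak, chr10:120476306-120476494, whose part in the promoter is in capitals in the sequence above, went from 9.12, 10.2, 10.5 and 10.1 to 3.50, 4.28, 3.29 and 5.77 CPM (log2 change -1.27, SE 0.28, edgeR adjusted p = 0.000606). The peak at chr10:120413395-120413838 was below 1.11 CPM in every EpiSC library, at 0.80, 1.10, 0.51 and 0.62 CPM, and at 18.7, 15.1, 15.3 and 13.6 CPM in DE (log2 change 4.24, SE 0.33, edgeR adjusted p = 2.71e-09). Another peak in the gene, chr10:120461934-120462086, chosen after its values were seen, was at a mean of 0.288 CPM in DE and 5.75 in EpiSCs. Just outside the gene, chr10:120477218-120477340, also chosen after its values were seen, was at a mean of 6.19 CPM in DE and 5.97 in EpiSCs. In all, 3 of its 10 tested peaks of 17 were higher and 3 lower.

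At the Igf2bp genes, the peak with the lowest p fell in DE at all 3. The peak nearest to a gene end was not called at Igf2bp2 or Igf2bp3, where it lay by the higher-coordinate end. At Igf2bp1 it lay by the lower-coordinate end (chr11:95955907-95955983) and did not pass the filter. By the other end of Igf2bp1, chr11:96007190-96007616, chosen after its values were seen, was not called (mean 18.4 CPM in DE and 15.1 in EpiSCs). Igf2bp2 (ENSMUSG00000033581, chr16:22059009-22163299) had 5 lower and 2 higher of 12 tested peaks of 15, and its intragenic peak at chr16:22076063-22076353 fell from 23.7, 24.4, 30.4 and 25.4 to 7.20, 6.58, 5.44 and 5.19 CPM (log2 change -2.08, SE 0.21, edgeR adjusted p = 7.13e-08). Every DE library was far below every EpiSC library there. Its peak nearest to a gene end, chr16:22163692-22163870, was at 2.06 to 12.1 CPM in DE and 6.40 to 8.68 in EpiSCs, with overlap (log2 change -0.28, interval -1.07 to 0.50, adjusted p = 0.537). Igf2bp3 (ENSMUSG00000029814, chr6:49085218-49215469) had 6 higher and 5 lower of 16 tested of 22; chr6:49209080-49209236, also in D030074P21Rik, fell from 16.8, 16.7, 25 and 17.8 to 4.73, 5.60, 5.01 and 4.04 CPM (log2 change -1.95, SE 0.24, edgeR adjusted p = 9.93e-07). The Igf2bp3 peak nearest to a gene end, chr6:49215438-49215584, was at 9.22 to 17.7 CPM in DE and 8.37 to 12.3 in EpiSCs (log2 change 0.36, interval -0.15 to 0.87, adjusted p = 0.221). Another, chr6:49130496-49130650, chosen after its values were seen, had at most 2 counts in any DE library and was at least 12-fold lower than the EpiSC mean of 7.21 CPM, taking 3 counts per library as the floor. Igf2bp1 (ENSMUSG00000013415, chr11:95957163-96005944) had 1 called peak of 6 tested, chr11:95981079-95981415 in the gene, which fell from 21.9, 24.8, 40.6 and 27 to 13, 11.9, 10.3 and 15 CPM (log2 change -1.19, edgeR adjusted p = 5.79e-05).

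Myc (ENSMUSG00000022346, chr15:61985341-61990361) had 2 higher and no lower of 7 tested peaks of 8, both beyond its far end, and no called transcript change. The peak at chr15:61993202-61993510, 2841 bases outside the gene, was at 4.80, 9.82, 10.7 and 10.2 CPM in EpiSCs and at 38.1, 35.7, 37.4 and 37.8 CPM in DE (log2 change 2.07, SE 0.21, edgeR adjusted p = 6.78e-08). The DE libraries were nearly level and all above the EpiSCs. The other, chr15:61994088-61994297, was at 1.76, 3.20, 0.77 and 1.55 CPM in EpiSCs and 10.9, 10.4, 11.2 and 13.8 CPM in DE (log2 change 2.54, SE 0.34, edgeR adjusted p = 2.81e-06), while the peak over the near end, chr15:61985051-61985673, changed by -0.17 (adjusted p = 0.387). Mycn (ENSMUSG00000037169, chr12:12936093-12941836) had 3 lower and 1 higher of 6 peaks, and the peak nearest to a gene end, chr12:12942430-12942566, was not called (log2 change 0.09, adjusted p = 0.817). The peak with the lowest p, chr12:12943260-12943676 and 1424 bases outside the gene, went from 25.4, 21, 19.9 and 40.9 to 9.06, 10.9, 9.30 and 6.05 CPM (log2 change -1.58, SE 0.24, edgeR adjusted p = 1.30e-05). A second, chr12:12927184-12927568, chosen after its values were seen and 8525 bases outside the gene, was at 31, 28.7, 4.59 and 56.4 CPM in EpiSC replicates 1, 4, 44 and 51 and at 0.82, 0.66, 0.57 and 0 CPM in DE (log2 change -5.73, SE 0.83, edgeR adjusted p = 0.000175). EpiSC replicate 44 was far below the other EpiSC libraries there.

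Among EpiSCs of different strains, the calls among the 9 genes were all in PWK and lay between -0.84 and 0.93 on the log2 scale. In PWK EpiSCs, 2 of the 9 were higher than in B6 (Igf2bp1 and Mycn) and 3 lower (Lin28b, Igf2bp2 and Myc), beside 12% of the 14822 genes tested called higher and 14.5% lower; all 9 passed the filter. B6 values in this table differ slightly from those above because the library scaling was refitted, and PWK and F1 share the B6 controls.

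**Figure D5:**
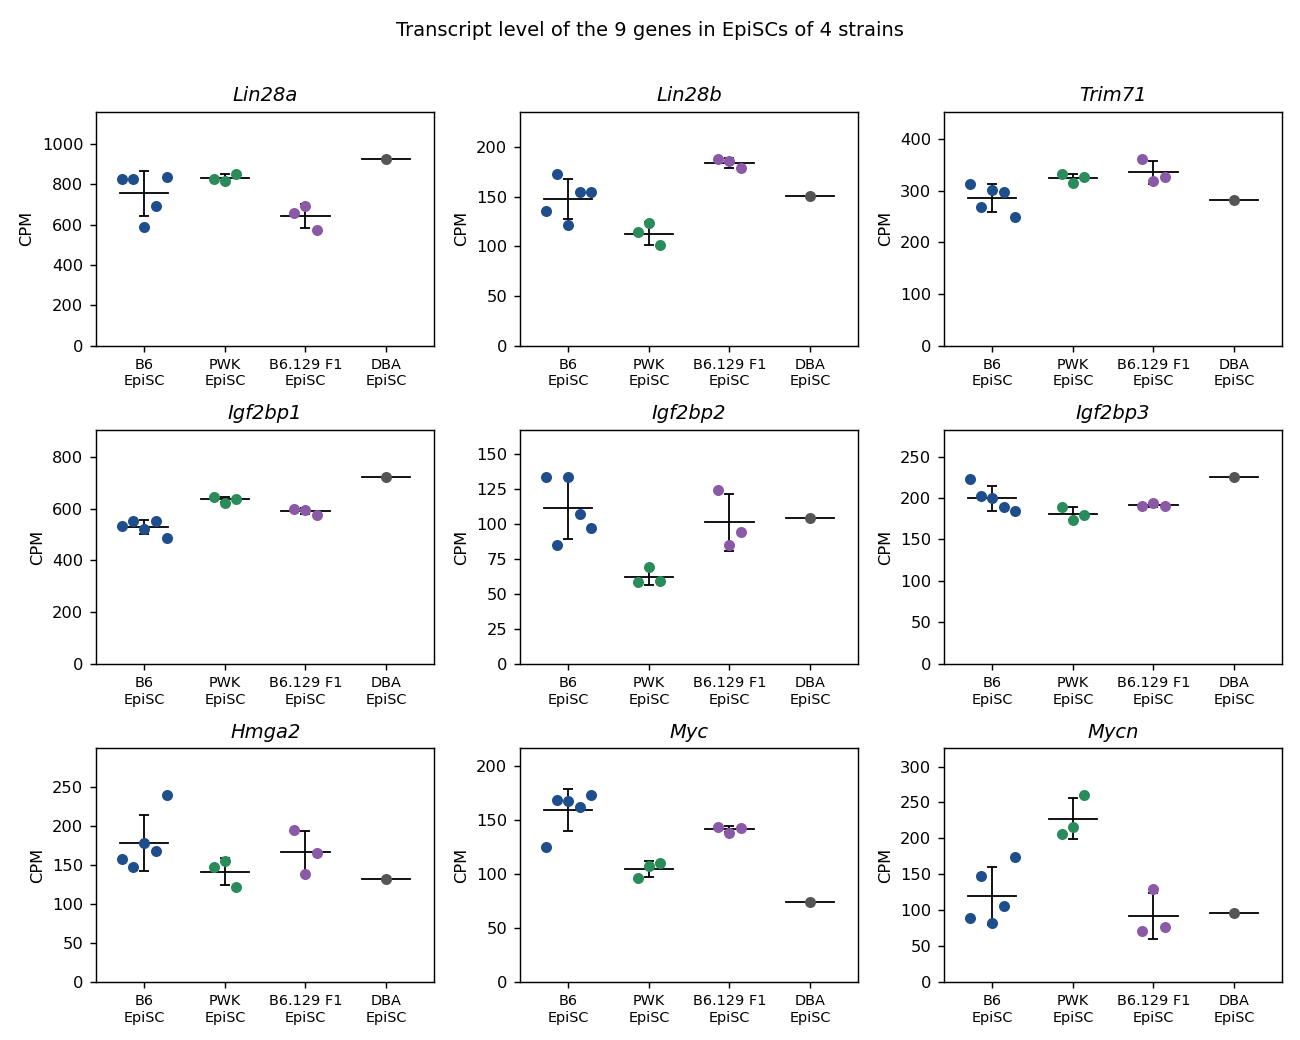
Transcript level in CPM (linear axis from 0) of the 9 genes in EpiSCs of B6 (5 libraries), PWK (3), B6.129 F1 (3) and DBA (1); points are libraries, lines are means and bars are SD. PWK is apart from B6 for Igf2bp1, Igf2bp2, Myc, Mycn and Trim71, and the DBA library is lowest of all for Myc at 74.1 CPM. The share of all genes apart in this way is not given here.

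Myc was at 95.6, 106.9 and 109.7 CPM in PWK libraries BioRep695, BioRep698 and the unnumbered one, against 124.4 to 172.8 CPM in B6 (log2 change -0.61, SE 0.10, edgeR adjusted p = 0.00157). Igf2bp2 was at 58.5, 69.3 and 59 CPM against 84.8 to 133.6 CPM (log2 change -0.84, SE 0.17, edgeR adjusted p = 0.00519). Igf2bp1 was at 646.1, 624.6 and 638.8 CPM against 487 to 552.7 CPM (log2 change 0.27, SE 0.05, edgeR adjusted p = 0.00411). For these 3 genes the strains did not overlap, and the calls remained in all 17 alternatives run. Mycn was at 205.9, 216.4 and 260.3 CPM against 81.4 to 174 CPM, again apart (log2 change 0.93, SE 0.27, edgeR adjusted p = 0.0279), but the call was lost without B6 replicate 4 or 44 or any one PWK library (highest adjusted p 0.101). Lin28b was at 114.5, 123 and 100.9 CPM against 121.2 to 173.1 CPM, with overlap (log2 change -0.39, SE 0.11, edgeR adjusted p = 0.0250); it was lost without B6 replicate 44, PWK BioRep695 or the unnumbered PWK library (highest 0.106) and in a fit of the 2 strains alone (0.0538).

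Lin28a (827.8, 815.9 and 850.5 CPM in PWK, interval of the log2 change -0.11 to 0.39), Igf2bp3 (189.4, 174 and 179.5 CPM), Hmga2 (146.8, 154.6 and 122 CPM) and Trim71 were not called, although the 3 Trim71 values of 331.4, 314.4 and 325.4 CPM lay above every B6 library. Feeder markers varied within B6 as well as between strains: their sum was 2889 to 3885 CPM in PWK, 95 to 3560 CPM in B6, 172.8 to 275.2 CPM in F1 and 1901 CPM in DBA. B6 replicate 51, at 3560 CPM within the PWK range, had 172.8 CPM of Myc, 97.1 of Igf2bp2, 487 of Igf2bp1 and 174 of Mycn, each outside the PWK values; the part of feeder content in the PWK differences was not tested. Alignment of PWK reads to the mm10 build, which is of B6, was not tested as a source of difference.

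Of the pathway lists in PWK, other let-7 targets had 7 of 19 lower and none higher (median -0.18 against -0.01 over all genes). Over all genes 14.5% were called lower and 12% higher. Hmga1, the paralog of Hmga2, was 3.36-fold lower (228 ± 10.3 against 765.8 ± 106.9 CPM; edgeR adjusted p = 2.11e-06) and Cdk6 3.05-fold lower (54 ± 3.59 against 164.7 ± 51.2 CPM; edgeR adjusted p = 0.000477). The let-7 processing list had 3 higher, led by Prkra (1.89-fold) and Tnrc6c (1.37-fold), and 2 lower, Tnrc6b and Hnrnpa1, of 18. No Myc partner was called of 13. A raw edgeR p under 0.05 was found for 4 of them, beside 5869 of the 14822 genes tested. Of 20 growth targets, Tert was higher (1.71-fold) and 5 were lower, led by Ldha (2.82-fold; 761.7 ± 180.7 against 2145 ± 223.4 CPM) and Odc1, ornithine decarboxylase (1.87-fold). Hmga1, Hnrnpa1 and Ldha have near-identical processed copies in the mouse genome, so their counts are uncertain.

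B6.129 F1 EpiSCs had none of the 9 genes called by edgeR, with 1.34% of all genes higher and 1.5% lower. Before adjustment 3 had edgeR p under 0.05, Lin28b, Trim71 and Igf2bp1, beside 3614 of the 14822 genes tested. DESeq2 called 2 of them, Lin28b (adjusted p 0.0411) and Igf2bp1 (0.0163), beside 2000 of the 14822 genes. Lin28b was at 187.9, 185.8 and 178.3 CPM in F1 replicates 4, 9 and the unnumbered one, above every B6 library (log2 change 0.32, interval 0.08 to 0.56, edgeR adjusted p = 0.112). Trim71 was at 317.6 to 361.2 CPM and Igf2bp1 at 578.1 to 601.2 CPM over the 3 libraries, each above every B6 library. Lin28a (574.1 to 690.3 CPM), Igf2bp2 (85.2 to 124.3), Igf2bp3 (190.6 to 194.2), Hmga2 (138.6 to 194.1), Myc (137.7 to 143.3) and Mycn (70.1 to 129.2) overlapped B6, with Mycn in replicate 9 apart from the 2 others. Trim71 and Igf2bp1 reached edgeR adjusted p of 0.0404 and 0.0440 without B6 replicate 1. The single DBA library had 925.8 CPM of Lin28a, 723.8 of Igf2bp1, 225.5 of Igf2bp3 and 74.1 of Myc; the first 3 were above and Myc below every other EpiSC library, with no replicate check. Lin28b at 150.3, Trim71 at 280.9, Igf2bp2 at 104.4 and Mycn at 95.3 CPM lay within the B6 range, and Hmga2 at 132.1 CPM below it.

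Few peaks of the 9 genes were called between PWK and B6: of 123, 103 passed the filter, 1 was higher and 4 lower, beside 1.42% and 3.68% of the 137667 peaks tested. All 5 are named. The Igf2bp2 peak that fell in DE was also lower in PWK: chr16:22076063-22076401 was at 4.99 and 3.04 CPM in PWK BioRep698 and the unnumbered one, 23.9, 26.4, 30.5 and 25.9 CPM in B6 replicates 1, 4, 44 and 51, and 40.3 CPM in DBA (log2 change -2.76, SE 0.28, edgeR adjusted p = 4.42e-05). The transcript was lower in PWK and higher in DE, while this peak was lower in both. A second Igf2bp2 peak, chr16:22151964-22152185, was higher in PWK, at 27.3 and 16.2 against 5.35, 5.37, 4.32 and 5.21 CPM, with DBA at 5.36 CPM (log2 change 2.08, SE 0.28, edgeR adjusted p = 0.000495).

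Outside Trim71, chr9:114573671-114573807 had no count in either PWK library and 2.52, 4.21, 4.32 and 2.15 CPM in B6, at least 7.56-fold lower with 3 counts per library as the floor (edgeR adjusted p = 0.00294). Inside it, chr9:114533962-114534157 was lower by 2.17 on the log2 scale (1.26 against 6.04 CPM, adjusted p = 0.0201), a call lost without B6 replicate 1, 4 or 44 or PWK BioRep698 (highest 0.0818). Igf2bp3 chr6:49209080-49209236, at 11.1 and 7.78 against 16.5, 17.6, 24.9 and 17.6 CPM (log2 change -1.03, edgeR adjusted p = 0.0362), was lost in 5 of 6 fits without 1 library, PWK BioRep698 being the exception. The Mycn peak at chr12:12927161-12927575 was open in PWK, at 40.7 and 41.7 CPM, and had no count in the DBA library, where 3 counts would be 0.487 CPM. Mycn's transcript in the DBA RNA library was at 95.3 CPM, within the B6 range.

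Over the 16 RNA libraries of EpiSCs and DE, the genes most like Lin28a in log2(CPM + 1) among 9704 were Cdk12 (Pearson r 0.995), Utp20 (0.993) and Spred2 (0.993). For Trim71 they were Cbx5 (0.997), Pafah1b1 (0.995) and Ttc21b (0.993), and for Hmga2 Ptprn (0.982), Gli3 (0.980) and Kif14 (0.979). Myc had lower values, with Rpap2 (0.832), Igsf11 (0.813) and Hmga1 (0.810). The points share libraries, depth and the split between EpiSCs and DE, so these values are a description only.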

How the data were processed

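Raw counts per gene (RNA-seq) and per peak (ATAC-seq) were used as the authors deposited them. Per the submitters' processing notes, Salmon, featureCounts and DESeq2 were named for RNA and fastp, Bowtie2, MACS2, featureCounts and DESeq2 for ATAC, with build mm10; their roles, and whether peaks were called per library or on pooled reads, are not given in the sources used here. RNA libraries were stranded and selected for polyA, per the labels' protocols. Of 30 samples, 27 were used (3 of PWK DE were not analysed here), and 17 columns of the EpiSC peak table matched no sample and were not used. The 3 libraries called unnumbered (PWK RNA, PWK ATAC and F1 RNA) have column names that match no replicate label, and were given to their group by the strain in the column name alone.

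Counts were tested with edgeR 4.0.16 in R 4.3.3 (TMM scaling, filterByExpr, robust quasi-likelihood fit, Benjamini-Hochberg over all features, called at adjusted p under 0.05), after checks on simulated data. B6 DE was compared with B6 EpiSC alone; PWK and B6.129 F1 EpiSCs were compared with B6 in 1 fit; ATAC comparisons used their 2 groups. SE is the log2 change over the square root of F, and intervals are at 95%. The gene tables list 29555 genes. Peaks were joined to a gene when they overlapped it or lay within 10 kb of either end; the peaks named are the one over the promoter window, or, where no peak or window was there, the one nearest to a gene end, and the one with the lowest p, and others are named as chosen after their values were seen. From each list the 2 largest called changes in each direction with mean log2 CPM of at least 3 are named. The 9 genes and the lists were chosen with earlier results of these data known.

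Alternatives were DESeq2 1.42.0, other scalings and filters, peak windows, a replicate block and leaving out each library, with 3 subsets of libraries added after the data were seen.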

Additional observations from a re-analysis of the deposited data

Results flagged for a closer look

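In groups of 4 or 5 libraries, 54 group values of the 9 genes and their named peaks were checked for a library whose gap to the nearest other exceeds Dixon's 95% limit, which chance passes in about 1 group of 20; 5 did. The Igf2bp2 transcript was at 130.3 CPM in DE replicate 2 against 396.4 to 428.5 CPM in the 3 others, a library that was not apart in the same way for the other 8 genes. The Myc transcript was at 119.5 CPM in EpiSC replicate 1 against 156.3 to 166.5 CPM. In ATAC, the Myc peak at chr15:61993202-61993510 was at 4.80 CPM in EpiSC replicate 1 against 9.82 to 10.7 CPM, the Igf2bp3 peak at chr6:49209080-49209236 was at 25 CPM in EpiSC replicate 44 against 16.7 to 17.8 CPM, and the Mycn peak at chr12:12942430-12942566 was at 8.36 CPM in DE replicate 51 against 5.15 to 5.60 CPM.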

How the results depend on the processing

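With scaling, filter, tool or 1 library changed, Lin28a, Lin28b, Trim71 and Hmga2 remained lower in DE in all 19 alternatives run for each; over single genes and peaks 734 values kept direction and call, 43 lost the call, 6 gained one and 14 turned sign. The signs that turned belong to values that were not called: Mycn in DE (-0.17 to 0.11 without 1 library, 5e-04 with the 2 deeper DE libraries, 0.35 with the EpiSC libraries low in feeder markers), in F1 Hmga2 (-0.23 to 0.0287) and Igf2bp3 (-0.0843 to 0.0248), and in ATAC the Lin28b peak at 45486298 (-0.25 to 0.0265) and the Mycn peak at 12942430 (-0.11 to 0.13; -0.12 with scaling by total counts). Leaving out 1 library gave 3 to 5 of the 9 genes called in PWK (5 in full) among 2446 to 4904 genes (3923), 0 to 2 in F1 among 0 to 1952 (421), and 3 to 4 peaks of the 9 genes in PWK (5) among 3632 to 6781 (7030). DESeq2 gave 2000 genes and 2 of the 9 in F1, and a fit of the 2 strains alone 0 genes. With at least 10 counts in every library, which tests fewer peaks, 18012 peaks were called in DE (65604) and 19 of these genes' peaks (48), and in PWK 2110 and 3. Peaks within 2 kb of either gene end, inside or outside the gene, gave 6 calls of 22 tested in DE and 0 of 27 in PWK. A 50 kb window gave 86 of 148 tested in DE, against 48 of 88 with the 10 kb window. Over all peaks tested 32.6% were called higher and 25% lower in DE, and 1.42% and 3.68% in PWK. Scaling by total counts moved the PWK gene calls to 2226 higher and 1708 lower from 1781 and 2142; the cause of these moves was not tested. With the replicate number as a block, 7731 genes and 54387 peaks were called in DE against 8197 and 61343 in the same libraries without it, and the Igf2bp3 transcript had an adjusted p of 0.0674. The numbers were not taken as pairs, since the labels do not say what a number shares and not every correlation of same-numbered deviations was over 0.1 (RNA 0.152, 0.0884, 0.214 and 0.197; ATAC 0.0533, -0.0112 and 0.0305); in RNA, DE replicates 2, 44 and 51 correlated best with their own number and DE replicate 4 with EpiSC replicate 1 (0.12), a hint from the data and not the design. ATAC depth limits peaks of a few counts.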
